A study of Homo sapiens with 12 samples.

Results

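Transcripts of p53 target genes were measured in MM.1S cells, an established human multiple myeloma line, on 12 Affymetrix arrays. A list of 10 p53 target genes was matched by symbol to the named rows of the expression table. A row was found for 5 of the 10, TP53I3, AEN, GDF15, RRM2B and TP53INP1, each with 1 row, out of 14884 genes tested. The other 5 had no row under their symbols in the annotation used and were not analysed here. FPD cells received 1 nM filanesib, 500 nM pomalidomide and 10 nM dexamethasone, and PD cells received 500 nM pomalidomide with 10 nM dexamethasone. F cells received 1 nM filanesib, with or without dexamethasone, and Control cells received vehicle, all for 24 h and with 3 arrays per group. For F the labels differ: the treatment field adds 10 nM dexamethasone, while the title and the protocol call this group F alone. DDIT4, a growth-signalling inhibitor that glucocorticoids induce, was at 5.97 ± 0.11 in F cells against 5.99 ± 0.08 in Control cells (mean log2 ± SD, n = 3 each), and at 10.45 ± 0.0095 in PD cells.

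The transcription factor p53 is held at a low level by ubiquitin ligases and accumulates after DNA damage, nucleolar stress or prolonged mitosis. It then binds paired decamer motifs and raises the transcription of genes for cell cycle arrest, DNA repair and death. Many of its targets also answer to other factors. Filanesib blocks the kinesin encoded by KIF11, which mitotic cells need to separate their spindle poles. Pomalidomide makes the cereblon ligase degrade IKZF1 and IKZF3, and dexamethasone activates the glucocorticoid receptor. MM.1S cells are generally described as carrying wild-type p53. As 1 cell line was used, the arrays of a group are repeats of that line. The labels do not say that they came from separate cultures, so every p-value reflects variation among arrays that could be purely technical.

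Values are log2 RMA expression, so a difference of 1 is a 2-fold change. Array medians over all rows were 4.23 to 4.27, arrays of a group correlated at 0.988 to 0.992 across rows, and no pair of arrays was identical. In all groups the plasma cell marker SDC1 was high (10.21 ± 0.03 in FPD, 10.16 ± 0.01 in PD, 10.16 ± 0.02 in F and 10.19 ± 0.05 in Control cells, n = 3 each), and 6 of 9 plasma cell genes were measured. CD38, IRF4, XBP1 and SLAMF7 also averaged above the array medians in every group. CD27 was near those medians, at 4.29 in FPD, 4.44 in PD, 4.40 in F and 4.22 in Control cells. Of these 6, none rose and 2 fell in FPD and in PD against Control. Over all genes 7.26% passed as higher and 5.89% as lower in FPD, and 6.84% and 8.63% in PD. IRF4, a transcription factor of plasma cells, fell by 1.35 in FPD (limma adjusted p = 6.63e-08) and by 1.23 in PD (2.2e-07). SLAMF7, a surface receptor, fell by 0.54 in FPD (limma adjusted p = 0.000399) and by 0.48 in PD (0.000877). Of 4 measured B cell markers CR2, the complement receptor, fell by 0.96 in FPD (limma adjusted p = 3.54e-05) and by 1.23 in PD (3.09e-06). The mean level of the 6 measured myeloid markers ran from 4.73 to 4.78 on the FPD arrays, 4.70 to 4.87 in PD, 4.46 to 4.55 in F and 4.57 to 4.60 in Control. The lysosomal gene CD68 was the 1 member of that list that passed the test in FPD (1.46 higher, limma adjusted p = 5.46e-08) and in PD against Control (1.63 higher, 1.31e-08), while CD14 averaged 3.47 in FPD, 3.51 in PD, 3.44 in F and 3.51 in Control cells, below the array medians. The part of these markers in the results below was not tested.

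Promoter sequence upstream of the annotated start is shown for TP53I3, AEN and GDF15, one member that rose, one that fell and one whose changes did not pass the test. For the other 2 measured members no sequence is shown. Each run is the 250 bases before a transcription start of the gene, read 5′ to 3′ on the gene's strand, from RefSeq on GRCh38.p14. The windows are chr2:24084835-24085084 on the minus strand for TP53I3, chr15:88621090-88621339 on the plus strand for AEN and chr19:18385908-18386157 on the plus strand for GDF15. Capitals mark a match to the p53 decamer consensus, a motif that reads the same on both strands.
TP53I3: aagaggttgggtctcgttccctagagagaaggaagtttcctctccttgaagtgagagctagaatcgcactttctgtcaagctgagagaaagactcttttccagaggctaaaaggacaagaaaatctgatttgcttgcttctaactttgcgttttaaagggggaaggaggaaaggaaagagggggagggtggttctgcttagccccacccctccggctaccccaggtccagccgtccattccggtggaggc
AEN: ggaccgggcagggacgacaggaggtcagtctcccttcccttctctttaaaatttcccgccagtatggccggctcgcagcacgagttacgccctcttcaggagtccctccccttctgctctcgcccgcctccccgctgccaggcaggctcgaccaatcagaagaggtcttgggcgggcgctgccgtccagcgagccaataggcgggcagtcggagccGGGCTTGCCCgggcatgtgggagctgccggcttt
GDF15: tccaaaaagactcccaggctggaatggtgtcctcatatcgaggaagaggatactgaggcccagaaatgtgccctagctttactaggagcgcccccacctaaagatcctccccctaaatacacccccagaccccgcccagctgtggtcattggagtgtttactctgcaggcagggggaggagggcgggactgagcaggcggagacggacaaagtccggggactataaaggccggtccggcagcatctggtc
AEN held 1 match, which began 34 bases before the start, and TP53I3 and GDF15 held none in these windows. Of 35116 such windows in the RefSeq table, 5.57% held a match and 0.0256% held a pair of decamers within a spacer of up to 13 bases. The glucocorticoid receptor hexamer AGAACA was searched on both strands, as AGAACA and TGTTCT. It was in none of the 3 windows and in 12.4% of all windows. A match is a description of the sequence and does not show binding, and known p53 elements often lie in introns or exons outside such windows.

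TP53I3, which encodes a quinone oxidoreductase-like enzyme linked to oxidative stress in p53-dependent death, was the member that moved most. It rose in both groups that received pomalidomide and dexamethasone, by 1.94-fold in FPD and 1.75-fold in PD, and F was not shown to differ from Control. The arrays read 6.85, 7.02 and 7.14 in FPD cells, 6.91, 6.73 and 6.92 in PD cells, 6.17, 6.09 and 6.20 in F cells and 6.15, 5.88 and 6.11 in Control cells. Every FPD and PD array lay above every F and Control array, and the F and Control arrays overlapped. FPD exceeded Control by 0.95 on the log2 scale (SE 0.10, 95% interval 0.73 to 1.18, fold 1.94, limma adjusted p = 1.49e-05). PD exceeded Control by 0.81 (SE 0.10, 95% interval 0.59 to 1.03, fold 1.75, limma adjusted p = 5.97e-05). FPD exceeded F by 0.85 (95% interval 0.63 to 1.07, fold 1.80, limma adjusted p = 4e-05). These 3 differences passed the test under all 14 other ways of processing that were tried, and that of FPD against Control ranged from 0.87 to 1.03. F differed from Control by 0.11 (95% interval -0.11 to 0.33, limma adjusted p = 0.924), and FPD from PD by 0.15 (95% interval -0.07 to 0.37, limma adjusted p = 0.729). TP53I3 ranked 100 by p-value among the 14884 genes in FPD against Control and 228 in PD against Control.

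**Figure D1:**
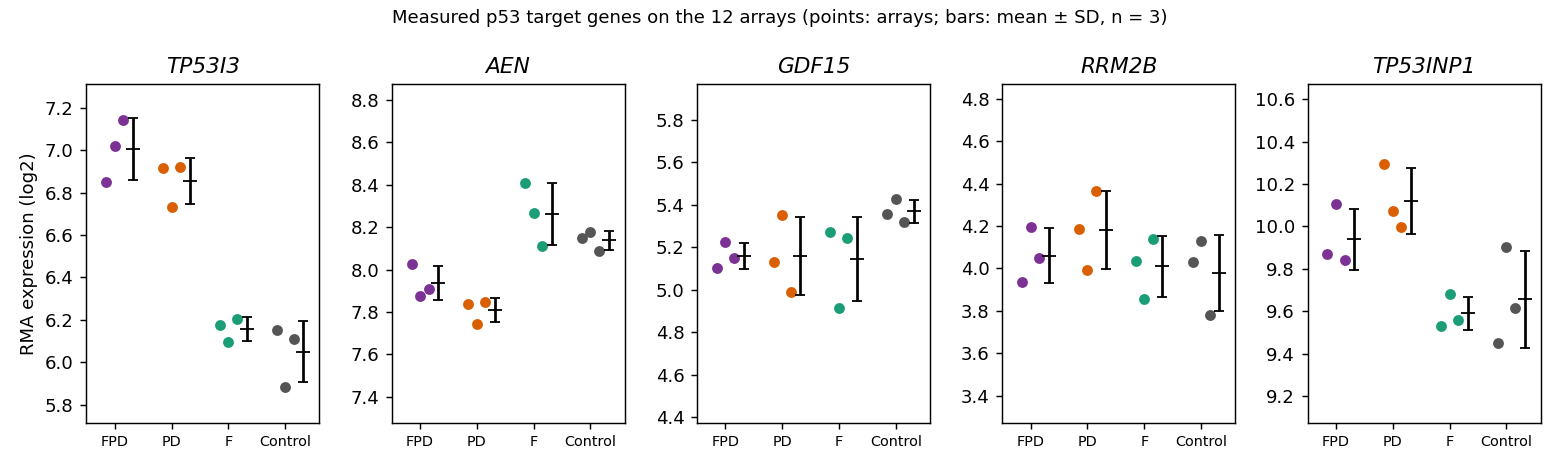
RMA expression (log2, y axis) of the 5 measured p53 target genes on each array, with groups FPD, PD, F and Control on the x axis, points for arrays and bars for mean ± SD (n = 3). All panels span the same height in log2 units. TP53I3 is at 6.73 or more on every FPD and PD array and at 6.20 or less on every F and Control array.

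The genes whose profile over the 12 arrays was most like that of TP53I3 were TDRKH, PTGR2 and CLIC5. Likeness was the root mean square difference between log2 values centred per gene, which was 0.111 for TDRKH, 0.111 for PTGR2 and 0.115 for CLIC5. TDRKH averaged 7.77 in FPD, 7.73 in PD, 6.90 in F and 6.78 in Control cells. PTGR2 (3.83 in FPD and 3.13 in Control cells) stayed below the array medians, and CLIC5 averaged 4.81 in FPD and 3.86 in Control cells. The choice by likeness fixes the direction of these genes, which is therefore no further result.

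TP53INP1 encodes a stress protein that binds kinases acting on p53 and promotes autophagy. Its row was bright on every array, with a mean of 9.83 over the 12 arrays. The arrays read 9.87, 10.10 and 9.84 in FPD cells, 10.30, 10.07 and 10.00 in PD cells, 9.53, 9.68 and 9.56 in F cells and 9.45, 9.90 and 9.62 in Control cells. All PD arrays lay above all Control arrays, while FPD overlapped Control, whose replicate 2 was high. PD exceeded Control by 0.46 (SE 0.12, 95% interval 0.21 to 0.72, fold 1.38, limma adjusted p = 0.0145). Leaving out Control replicate 1 (limma adjusted p = 0.0757) or PD replicate 1 (0.0718) ended the call, as did testing all 53617 rows (0.0535). FPD differed from Control by 0.28 (95% interval 0.03 to 0.54, limma adjusted p = 0.156), which passed without Control replicate 2 (0.41, limma adjusted p = 0.0448). FPD differed from F by 0.35 (95% interval 0.09 to 0.61, limma adjusted p = 0.0686) with no overlap of arrays. That difference passed after a further quantile normalization (0.0296), among genes above the median mean (0.0341), in the compared arrays alone (0.0389) and with a trended prior (0.0361). FPD and PD differed by -0.18 (95% interval -0.44 to 0.07, limma adjusted p = 0.709), so a difference between the responses with and without filanesib was not shown. F differed from Control by -0.07 (95% interval -0.32 to 0.19, limma adjusted p = 0.952).

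AEN encodes an apoptosis-enhancing nuclease that p53 induces. Between groups with and without pomalidomide, its level went the opposite way to TP53I3. The arrays read 8.03, 7.87 and 7.91 in FPD cells, 7.84, 7.75 and 7.85 in PD cells, 8.41, 8.27 and 8.11 in F cells and 8.15, 8.18 and 8.09 in Control cells. Every FPD and PD array lay below every F and Control array, and F overlapped Control. PD differed from Control by -0.33 (SE 0.09, 95% interval -0.53 to -0.13, 1.26-fold lower, limma adjusted p = 0.0246). A further quantile normalization ended the call (limma adjusted p = 0.0751), as did the use of all rows (0.0547) and the omission of Control replicate 1 (0.0635), Control replicate 2 (0.0793) or PD replicate 2 (0.0879). FPD differed from F by -0.33 (95% interval -0.53 to -0.13, 1.25-fold lower, limma adjusted p = 0.0279). This call was lost without F replicate 1 (limma adjusted p = 0.111), F replicate 2 (0.0791), FPD replicate 2 (0.101) or FPD replicate 3 (0.088), with all rows (0.064) and in a fit of FPD and F arrays only (0.0534). FPD differed from Control by -0.20 (95% interval -0.40 to -0.0043, limma adjusted p = 0.193). F differed from Control by 0.12 (95% interval -0.08 to 0.32, limma adjusted p = 0.912). FPD differed from PD by 0.13 (95% interval -0.07 to 0.32, limma adjusted p = 0.739), although all FPD arrays lay above all PD arrays.

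GDF15 encodes a secreted stress cytokine that p53 and the ATF4 pathway both induce. It lay slightly lower in each treated group than in Control, without passing the test. The arrays read 5.10, 5.22 and 5.15 in FPD cells, 5.13, 5.35 and 4.99 in PD cells, 5.27, 4.91 and 5.25 in F cells and 5.36, 5.43 and 5.32 in Control cells. The FPD and F arrays lay below all Control arrays, and PD overlapped them through replicate 2. The difference from Control was -0.21 in FPD (95% interval -0.45 to 0.03, limma adjusted p = 0.28), -0.21 in PD (95% interval -0.45 to 0.03, limma adjusted p = 0.257) and -0.23 in F (95% interval -0.47 to 0.01, limma adjusted p = 0.844). These 3 differences share the same Control arrays. FPD differed from PD by 2e-04 (95% interval -0.24 to 0.24, limma adjusted p = 1) and from F by 0.02 (95% interval -0.22 to 0.26, limma adjusted p = 0.955).

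RRM2B encodes the p53-inducible small subunit of ribonucleotide reductase, which supplies deoxynucleotides for repair and mitochondrial DNA outside S phase. Its row was low, with 11 of 12 arrays at 3.78 to 4.20 and PD replicate 3 at 4.36, against array medians of 4.23 to 4.27. Signal above background was therefore not shown, and a change could be understated. The arrays read 3.94, 4.20 and 4.05 in FPD cells, 4.19, 3.99 and 4.36 in PD cells, 4.03, 3.86 and 4.14 in F cells and 4.03, 4.13 and 3.78 in Control cells. All 4 groups overlapped. The difference from Control was 0.08 in FPD (95% interval -0.18 to 0.34, limma adjusted p = 0.765), 0.20 in PD (95% interval -0.06 to 0.46, limma adjusted p = 0.329) and 0.03 in F (95% interval -0.23 to 0.29, limma adjusted p = 0.981). FPD differed from PD by -0.12 (95% interval -0.38 to 0.14, limma adjusted p = 0.815) and from F by 0.05 (95% interval -0.21 to 0.31, limma adjusted p = 0.863).

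**Figure D2:**
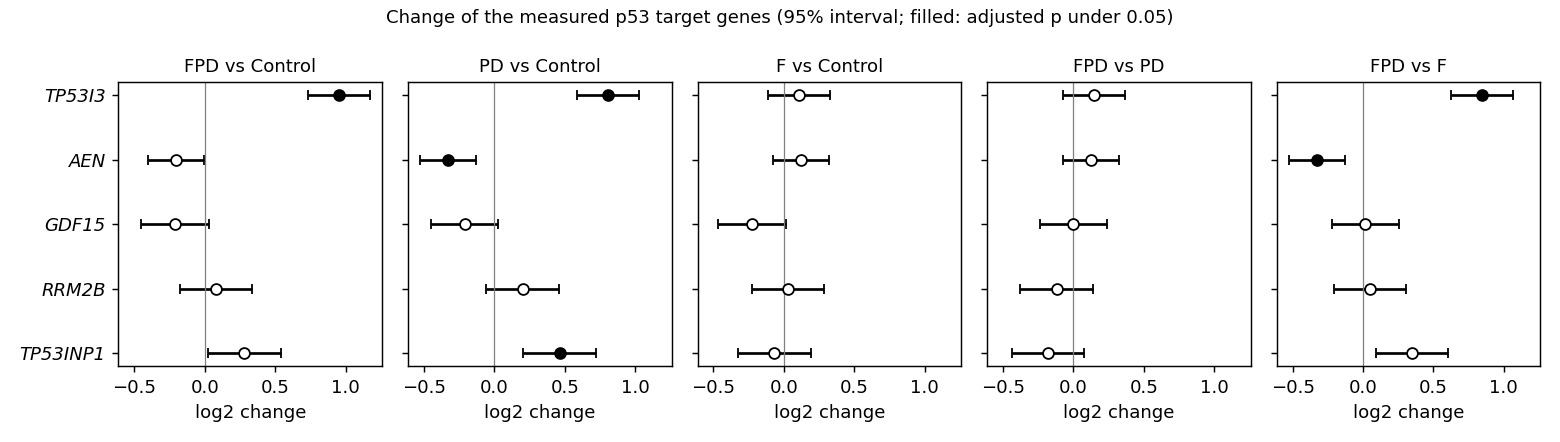
Log2 change (x axis) with its 95% interval for each measured p53 target gene (rows) in 5 comparisons (panels), filled where the limma adjusted p was under 0.05. TP53I3 is filled in the 3 comparisons where one group received pomalidomide and the other did not, AEN in PD against Control and FPD against F, and TP53INP1 in PD against Control.

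Counted over the 5 measured members, 1 rose and none fell in FPD against Control, where 13.1% of all genes tested passed the threshold. In PD against Control 2 rose and 1 fell, with 15.5% of all genes passing, 6.84% higher and 8.63% lower. In FPD against F 1 rose and 1 fell, with 14.1% of all genes passing. In the same comparison 7.5% of all genes passed as higher and 6.64% as lower. None passed in F against Control, where 0.00672% of all genes did (1 gene), or in FPD against PD, where 0.0336% did (5 genes, all higher). In those comparisons none of the 5 had an unadjusted limma p under 0.05 either, which 895 and 1283 of all genes had. With a trended prior, too, none of the 5 passed in F against Control or in FPD against PD. The median log2 change of the 5 was 0.08 in FPD, 0.20 in PD and 0.03 in F against Control, beside -0.02, -0.0027 and -0.0051 over all genes. The arrays of 3 members did not overlap between FPD and Control, TP53I3 higher and AEN and GDF15 lower, and 29.9% of all genes separated likewise. For PD against Control the arrays of 3 members stood apart, TP53I3 and TP53INP1 higher and AEN lower, where 29% of all genes did (13.2% higher and 15.8% lower). For F against Control only GDF15 stood apart, lower, where 10% of all genes did (4.84% higher and 5.15% lower). For FPD against PD only AEN stood apart, higher, where 14.4% of all genes did (8.1% higher and 6.35% lower). For FPD against F TP53I3 and TP53INP1 stood apart higher and AEN lower, where 30.3% of all genes did (15.1% higher and 15.2% lower).

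The question whether filanesib altered the response to pomalidomide and dexamethasone beyond the sum of both was addressed by the contrast FPD minus PD minus F plus Control. None of the 5 members passed, and 0% of all genes did (limma, 833 genes with an unadjusted p under 0.05, none of them a member). The contrast was 0.04 for TP53I3 (95% interval -0.27 to 0.35), 0.0021 for AEN (-0.28 to 0.28), 0.23 for GDF15 (-0.11 to 0.57), -0.15 for RRM2B (-0.51 to 0.21) and -0.12 for TP53INP1 (-0.48 to 0.25). The intervals for GDF15, RRM2B and TP53INP1 reach sizes beyond the differences from Control measured for these genes. If F cells also received dexamethasone, as the treatment field gives, the contrast subtracts that drug in both PD and F and is not a departure from additivity of filanesib with the pair.

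**Figure D3:**
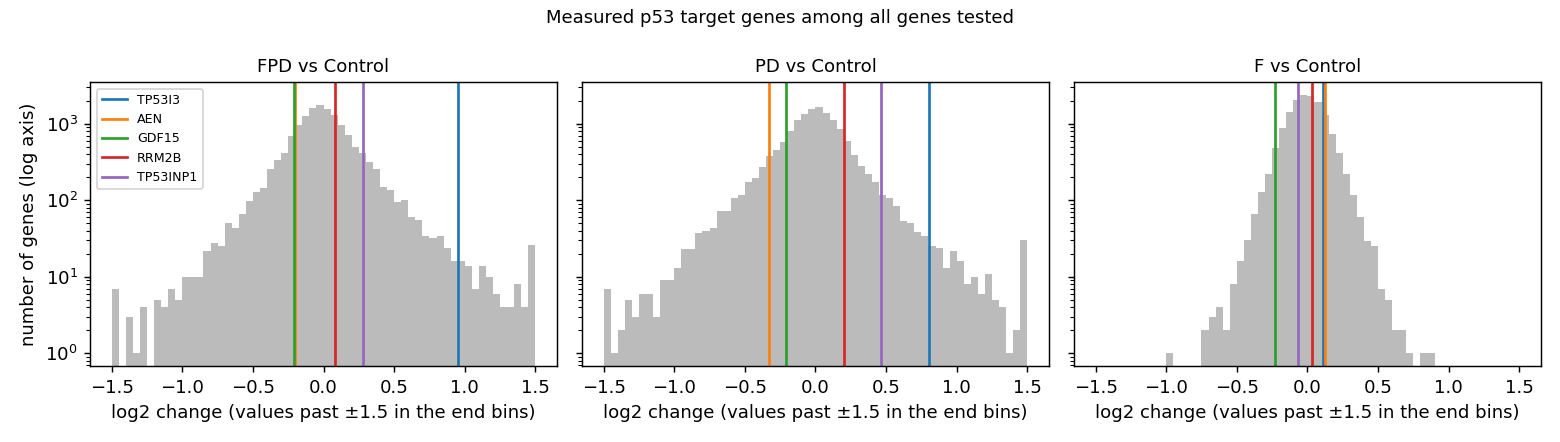
Histograms of the log2 change of all 14884 genes tested (x axis, values past the range gathered in the end bins; y axis, number of genes on a log axis) for FPD, PD and F against Control, with the 5 measured p53 target genes as coloured lines. TP53I3 stands in the upper tail in FPD and PD, and the other members lie nearer the centre.

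Among 22 measured genes of a second list of p53 targets (32 listed), changes went both ways. In FPD against Control 4 rose and 3 fell, beside 7.26% and 5.89% of all genes, and the median was 0.0097. In PD against Control 3 rose and 4 fell, beside 6.84% and 8.63% of all genes, and the median was 0.08. DRAM1, a lysosomal membrane protein that links p53 to autophagy, had the highest change of this list in both comparisons. Its arrays read 5.04, 4.97 and 4.94 in FPD cells, 4.71, 4.97 and 4.78 in PD cells, 4.04, 4.28 and 4.31 in F cells and 3.88, 4.14 and 4.08 in Control cells. The FPD and PD arrays stood above all others, while the Control arrays lay below the array medians. Of all genes, 14.4% separated as higher in FPD against Control and 13.2% in PD against Control. DRAM1 was higher in FPD than in Control by 0.95 (SE 0.11, fold 1.93, limma adjusted p = 1.79e-05), in PD than in Control by 0.78 (limma adjusted p = 8.75e-05) and in FPD than in F by 0.78 (limma adjusted p = 0.000109), in all 13 other ways of processing that could test it. It was left out where only genes above the median mean were tested. As signal above background was not shown in Control cells, the change could be understated.

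CCNG1, a cyclin that acts in feedback on p53, rose in FPD by 0.38 (limma adjusted p = 0.0258). It did not pass over all rows (0.0744) or with the omission of Control replicate 1 (0.102), Control replicate 3 (0.0747), FPD replicate 2 (0.0845) or FPD replicate 3 (0.0888). BBC3, which encodes the pro-apoptotic protein PUMA, rose in PD by 0.50 (limma adjusted p = 0.0218), with 6.64, 6.79 and 7.13 on PD arrays against 6.61, 6.27 and 6.18 on Control arrays. BBC3 did not pass with Control replicate 2 (0.0795), Control replicate 3 (0.096) or PD replicate 3 (0.111) left out, with all rows (0.0802) or in a fit of PD and Control arrays only (0.0502). In FPD its change was 0.33 (limma adjusted p = 0.144). BAX, the pro-apoptotic pore protein, had a log2 change of -0.14 in FPD (limma adjusted p = 0.366) and -0.13 in PD (0.385).

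PLK3, a stress-activated polo-like kinase, fell by 0.54 on the log2 scale in FPD (limma adjusted p = 0.00211). In PD PLK3 fell by 0.40 (limma adjusted p = 0.0141), which did not hold with Control replicate 1 (0.0549) or PD replicate 2 (0.0771) left out. Its F arrays also lay below all Control arrays, where 5.15% of all genes separated as lower. That difference of -0.28 did not pass (limma adjusted p = 0.702), nor did the -0.26 of FPD against F (0.115). NINJ1, a membrane protein of lytic cell death, fell by 0.56 in PD (limma adjusted p = 0.00531) under every alternative. In FPD NINJ1 fell by 0.46 (limma adjusted p = 0.0213), which ended with the omission of Control replicate 2 (0.0749), FPD replicate 1 (0.0605) or FPD replicate 3 (0.119) and over all rows (0.0771). ASCC3, a helicase subunit, fell by 0.50 in PD (limma adjusted p = 0.01), which ended with the omission of Control replicate 3 (0.0543) or PD replicate 3 (0.053). In FPD against F 3 of the 22 rose and 1 fell, beside 7.5% and 6.64% of all genes. DRAM1, APAF1 (0.45, limma adjusted p = 0.00521), the scaffold of the apoptosome, and SESN2 (0.40, limma adjusted p = 0.0252), a sestrin that restrains mTORC1, rose. NINJ1 fell by 0.46 (limma adjusted p = 0.0192). SESN2 lost that call without F replicate 2 (0.0759), F replicate 3 (0.104) or FPD replicate 1 (0.137) and over all rows (0.0797), and NINJ1 without F replicate 1 (0.0802), FPD replicate 1 (0.0572) or FPD replicate 3 (0.109) and over all rows (0.0717).

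None of the 22 passed in F against Control or in FPD against PD (limma), where 0.00672% and 0.0336% of all genes did. In each, 2 of the 22 had an unadjusted limma p under 0.05, beside 895 and 1283 of the 14884 genes tested. The nearest to the threshold in FPD against PD was PLK2, a polo-like kinase induced by p53, singled out after its values were seen. PLK2 read 4.69, 4.70 and 4.87 in FPD cells against 5.18, 5.57 and 5.30 in PD cells, without overlap, where 14.4% of all genes separated likewise. The difference was -0.59 (SE 0.11, limma adjusted p = 0.0566). It passed with a trended prior (limma adjusted p = 0.0413) and without PD replicate 1 (0.0446), and its adjusted p reached 0.248 over the other alternatives. Control cells read 5.08, 5.19 and 4.98, above all FPD arrays and overlapping PD at 1 array. Of all genes, 15.5% separated as lower in FPD against Control.

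**Figure D4:**
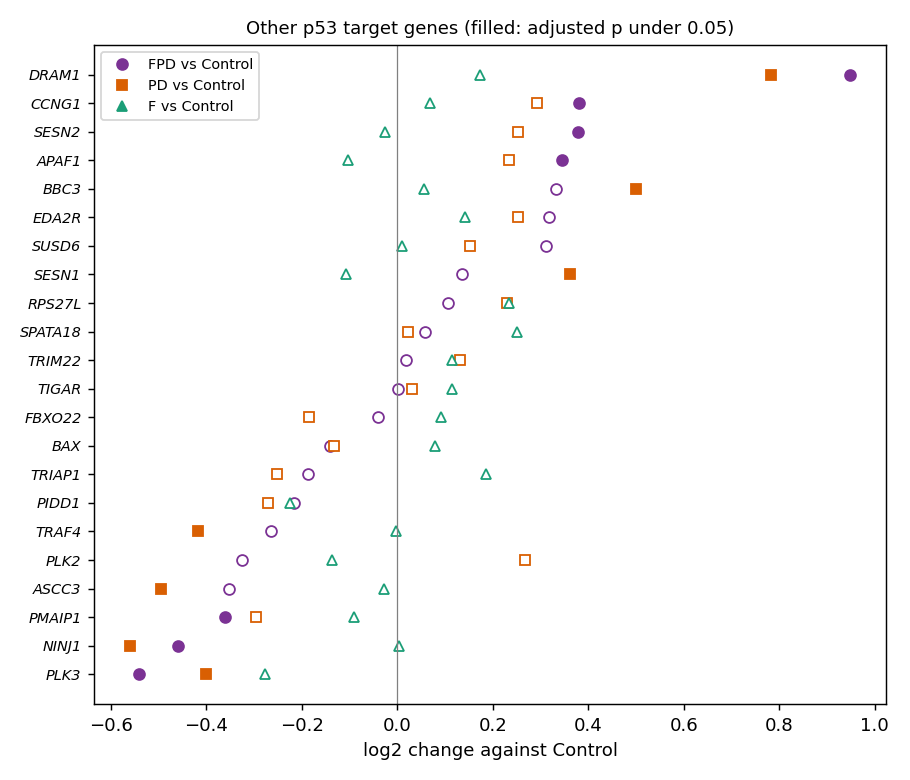
Log2 change against Control (x axis) of the 22 measured genes of the second p53 target list (rows, ordered by FPD) in FPD (circles), PD (squares) and F (triangles), filled where the limma adjusted p was under 0.05. DRAM1 stands highest in FPD and PD, PLK3 lowest in FPD and NINJ1 lowest in PD, and no triangle is filled.

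Of 14 measured regulators and relatives of p53 (20 listed), none rose and 1 fell in FPD against Control, and none rose and 5 fell in PD against Control, beside 5.89% and 8.63% of all genes lower. The median was -0.19 in FPD and -0.21 in PD. TP73, a p53 relative that binds the same motif, read 7.07, 6.92 and 7.03 in FPD cells, 6.92, 6.80 and 7.19 in PD cells, 7.58, 7.37 and 7.28 in F cells and 7.69, 7.90 and 7.82 in Control cells. The FPD and PD arrays lay below all others, and the F arrays lay below all Control arrays. Of all genes, 15.5% separated as lower in FPD against Control, 15.8% in PD against Control and 5.15% in F against Control. In F the TP73 difference from Control was -0.39, which did not pass (limma adjusted p = 0.606). TP73 fell by 0.79 in FPD (limma adjusted p = 0.000164) and by 0.83 in PD (limma adjusted p = 9.18e-05), under every alternative. CHEK1, a checkpoint kinase, fell by 0.61 in PD (limma adjusted p = 0.00077), also under every alternative. MDM4, an inhibitor of p53, had a change of 0.23 in FPD (limma adjusted p = 0.215), or 0.36 without Control replicate 3 (limma adjusted p = 0.0357), and 0.06 in PD (limma adjusted p = 0.828).

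The partners of the members were read from further lists. Of 9 measured deoxynucleotide supply genes none passed in FPD, and 2, TYMS (-0.35, limma adjusted p = 0.023) and DCK (-0.30, limma adjusted p = 0.0406), fell in PD against Control, beside 8.63% of all genes lower in PD and 5.89% lower in FPD. TYMS did not pass with any Control array left out (0.0682, 0.0504 and 0.0538), with PD replicate 1 (0.0613) or 3 (0.0784) left out, or over all rows (0.0569). DCK did not pass with Control replicate 1 (0.0815) or 2 (0.156) or PD replicate 1 (0.139) or 2 (0.105) left out. It also failed after a further quantile normalization (0.124), over all rows (0.0846) and in PD and Control arrays only (0.085). RRM2, the S-phase counterpart of RRM2B, read 10.70, 10.76 and 10.70 in FPD cells, 10.65, 10.65 and 10.68 in PD cells, 10.96, 11.01 and 11.02 in F cells and 10.90, 10.89 and 10.85 in Control cells. FPD and PD arrays lay below all others. Of all genes, 15.5% separated as lower in FPD against Control, 15.8% in PD against Control and 15.2% in FPD against F. Against Control RRM2 did not pass (-0.17 in FPD, limma adjusted p = 0.212, and -0.22 in PD, 0.0706). The PD change passed in 3 of 14 alternatives. FPD was lower than F by a log2 change of -0.28 (limma adjusted p = 0.0252). RRM1, the large subunit, was at -0.35 in the same comparison (limma adjusted p = 0.0208). These were the 2 calls among the 9 genes in FPD against F, beside 6.64% of all genes lower. These calls were lost without F replicate 2 (0.0807 for RRM2 and 0.069 for RRM1), F replicate 3 (0.0794 and 0.0858), FPD replicate 1 (0.0817 and 0.0841) or FPD replicate 3 (0.0799 and 0.0645). RRM2 also did not pass in FPD and F arrays only (0.0505), nor RRM1 over all rows (0.0522). None of 3 measured nucleotide excision repair genes passed in any comparison. Of all genes, 13.1% passed in FPD against Control, 15.5% in PD against Control and 14.1% in FPD against F.

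Of 6 measured death receptor signalling genes, 2 rose and 2 fell in FPD against Control, beside 7.26% and 5.89% of all genes, and 2 rose and 1 fell in PD against Control, beside 6.84% and 8.63%. CFLAR, which blocks caspase-8 activation, rose by 1.17 in FPD (fold 2.24, limma adjusted p = 2.45e-05) and by 1.04 in PD (limma adjusted p = 6.12e-05), and TRADD, an adaptor of the TNF receptor, by 0.42 in PD (limma adjusted p = 0.00941). TRADD also rose by 0.38 in FPD (limma adjusted p = 0.0219), but not with Control replicate 2 (0.0674), Control replicate 3 (0.0607), FPD replicate 1 (0.0551) or FPD replicate 3 (0.0918) left out, nor over all rows (0.062). FADD, the adaptor that recruits caspase-8, fell by 0.44 in FPD (limma adjusted p = 0.00748), a call that ended when the rows of a gene were averaged (0.0964). BID, a substrate of caspase-8, fell by 0.43 in PD (limma adjusted p = 0.00361) and by 0.38 in FPD (0.00954), where it did not pass without FPD replicate 3 (0.0501). The changes of CFLAR in both groups and of TRADD and BID in PD passed under every alternative. Of 7 measured integrated stress response genes, the other pathway that drives GDF15, 1 rose and 2 fell in both FPD and PD against Control, beside 7.26% higher and 5.89% lower of all genes in FPD and 6.84% and 8.63% in PD. VLDLR, a lipoprotein receptor, rose by 0.40 in FPD (limma adjusted p = 0.0273) and by 0.39 in PD (0.03). In FPD VLDLR did not pass with any 1 of the 6 compared arrays left out (0.0538 to 0.111) or over all rows (0.086). In PD it did not pass with Control replicate 1 (0.0529), 2 (0.0988) or 3 (0.0653) or PD replicate 2 (0.156) left out, over all rows (0.0867) or in PD and Control arrays only (0.0585). PSAT1, a serine synthesis enzyme, fell by 1.37 in FPD (limma adjusted p = 1.95e-06) and by 1.39 in PD (limma adjusted p = 1.57e-06), and TRIB3, a pseudokinase induced by ATF4 and CHOP, fell by 0.53 in FPD (limma adjusted p = 0.00505). ATF3, a stress-induced transcription factor, fell by 0.36 in PD (limma adjusted p = 0.0344). It did not pass with Control replicate 1 (0.104) or 2 (0.115) or PD replicate 1 (0.103) or 2 (0.114) left out, over all rows (0.0895), in PD and Control arrays only (0.0507) or with the replicate number as a block (0.0536). ATF4 itself was at -0.14 in FPD (limma adjusted p = 0.361) and -0.09 in PD (0.599), and did not pass in any comparison.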

How the data were processed

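Total RNA of 12 MM.1S samples was hybridised to Affymetrix arrays, 1 per sample. The deposited values are log2 expression. Per the submitters' processing notes, the authors used RMA in Expression Console. This corrects background, brings arrays to a common distribution and compresses low signals. For settings and genome build, the sources used here give nothing, and detection calls were not used. Rows were named through the platform annotation: 16098 of 53617 had 1 symbol, 0 several and 37519 none. All 14884 entrez identifiers matched RefSeq (GRCh38.p14), used for names. For 779 genes with several rows, the row with the highest mean was used. Group means of all 12 arrays were fitted with limma 3.58.1 in R 4.3.3 (8 residual degrees of freedom). Two-sided p-values were Benjamini-Hochberg adjusted across the 14884 genes, with calls made at an adjusted p under 0.05. The fit was tested on simulated data. The members and lists were chosen with earlier results of these data known. Named genes were all measured members, list members past the threshold (the 2 highest and 2 lowest where more passed), several genes fixed by name and the 3 genes most like TP53I3. Alternatives were other scalings, filters, rows, fits and replicates. The number of arrays limits the precision.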

Additional observations from a re-analysis of the deposited data

How the results depend on the processing

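The direction of TP53I3 in FPD against Control, PD against Control and FPD against F, and its passing of the test, held under all 14 alternatives of each comparison. Counts of members moved as follows. With a further quantile normalization 0 members fell in PD against Control and 2 rose in FPD against F. In FPD against F 2 also rose among genes above the median mean, in the compared arrays alone (0 fell) and with a trended and robust prior. Over all rows 1 member rose and 0 fell in PD against Control, and 0 fell in FPD against F. In the second p53 target list, 2 rose in FPD against Control and 3 fell in FPD against F among genes above the median mean. Over all rows that list had 1 higher and 1 lower in FPD, 1 higher in PD against Control and 0 lower in FPD against F, and with the trended prior 1 (PLK2) was lower in FPD than in PD. Leaving out 1 array at a time, members that rose numbered 1 to 2 in FPD against Control and 1 to 2 in PD, and members that fell numbered 0 to 1 in PD against Control and 0 to 1 in FPD against F. In the second list the ranges were 1 to 4 higher and 1 to 2 lower in FPD, 1 to 3 higher and 3 to 4 lower in PD, 2 to 3 higher and 0 to 1 lower in FPD against F, and 0 to 1 lower in FPD against PD. In most of these fits fewer arrays or more rows were tested. The cause of the shifts was not tested.

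Signs turned only for changes that had not passed. After the further quantile normalization GDF15 was at -0.0077 in FPD against PD, and the departure from additivity was -6e-04 for TP53I3 and -0.053 for AEN. With arrays centred on the median of named genes GDF15 was at -0.013 in FPD against F. Without 1 array, RRM2B ranged from -0.019 to 0.16 in FPD and -0.070 to 0.11 in F against Control and -0.026 to 0.12 in FPD against F, GDF15 from -0.084 to 0.098 in FPD against PD and -0.098 to 0.080 in FPD against F, TP53INP1 from -0.17 to 0.056 in F against Control, MDM4 from -0.0715 to 0.19 in PD against Control, and the departure from -0.029 to 0.12 for TP53I3 and -0.073 to 0.075 for AEN. GDF15 and RRM2B were left out among genes above the median mean.

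A pairing of the arrays by replicate number was not shown. Of 18 same-numbered pairs, 5 had deviations correlated over 0.1 (median 0.017, range -0.26 to 0.16). Of 36 differently numbered pairs, 5 did (median -0.013, range -0.20 to 0.23). In all, 5 of 12 arrays agreed best with their own number. With the replicate number as a block, the members' counts were 1 higher in FPD and 2 higher and 1 lower in PD against Control, as without it, and the calls over all genes were 1051 higher and 865 lower in FPD. In FPD against PD, quantile normalization gave 6 higher and 1 lower over all genes, and the block 0, against 5 higher and 0 lower. The block also ended the single call in F against Control. The balance of calls over all genes turned with the scaling: in PD against Control 1018 were higher and 1284 lower, against 1157 and 1081 after quantile normalization and 865 and 1458 with centred arrays. In FPD against F 1117 were higher and 988 lower, against 929 and 1131 with centred arrays.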
